A study of Mus musculus with 4 samples.

Results

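Expression of 9 genes that serve as markers of resting microglia was followed in RNA sequencing libraries of mouse microglia kept in primary glial culture. The genes were Tmem119, Fcrls, Gpr34, Olfml3, Slc2a5, Crybb1, Selplg, Cst3 and Sparc, a fixed set of symbols that were matched by exact name, and all 9 were found among the 56832 genes listed. The 4 libraries formed 1 group, cultured microglia of strain C57BL/6 labelled female, with no genotype, treatment, time in culture or age given in the labels. Cells had been taken up with trypsin and sorted by flow cytometry, and the gate is not given in the sources used here. Nothing in the labels tells whether the libraries came from separate cultures or animals, so each SD describes how these 4 libraries differ and may hold technical variation alone. No library of microglia from an intact brain, and none of the other cells of the series, was analysed here, so a level in culture could not be set against a level in the brain.

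Microglia are the macrophages that live in the brain tissue. In the intact brain, signals from neighbouring cells, TGF-beta among them, hold them in a surveying state that is marked by a set of genes known as homeostatic, and these genes are known to fall when the cells leave that environment or meet disease. The set is mixed in function. It holds secreted proteins (Cst3, Olfml3 and Sparc), surface receptors and membrane proteins (Fcrls, Gpr34, Tmem119 and Selplg), a sugar transporter (Slc2a5) and a protein first known from the lens of the eye (Crybb1).

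The libraries held 23212183 to 28469813 gene counts, and 11704 genes reached 1 CPM (counts scaled by the summed gene counts of the library) in all 4. All 15 genes shared by macrophages in general were above that level, with a list median of 2888 TPM ± 99.4 (SD, n = 4, as for every ± here). TPM (transcript counts per length, brought to the same sum in each library) allows levels of different genes to be compared. In the gene lists a gene is called detected where it reached 1 CPM in every library. Of 9 border macrophage genes 5 were detected, all above 100 TPM, among them Stab1 (752 ± 51.1 TPM), Ms4a7 (527 ± 37.0), Pf4 (309 ± 14.4) and Mrc1 (295 ± 30.9), while Cd163 and Lyve1 had 0 counts. Of 9 monocyte genes 5 were detected, led by S100a4 (65.2 ± 17.6 TPM), Fn1 (57.1 ± 7.0) and Itgal (42.0 ± 5.59), while Ly6c2, Plac8, Cd177 and Chil3 had 0 counts. Xist, the RNA of the inactive X chromosome, was at 253 to 341 CPM, as the label female implies. Y-linked genes, which go against that label, were present in every library, Kdm5d at 19.6 to 21.2 CPM among them, so no library could be left out on that ground. In bulk RNA, fewer cells of a type and less RNA per cell cannot be told apart.

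Of the 9 markers, 7 were abundant, 1 was low and 1 was close to the limit of detection. In every library 8 of the 9 reached 1 CPM, beside 51.8% of the 21190 protein-coding genes with a length and 20.6% of all listed genes. A mean of at least 100 TPM was reached by 7, beside 7.47% of protein-coding genes. Crybb1 alone was under 1 TPM on average, as were 46.9% of protein-coding genes. The median over the 9 markers was 259 TPM ± 13.2, and the median over protein-coding genes was 1.68 TPM ± 0.123. The markers were chosen for their place in microglia, so these shares are a description. Together they took 0.965% to 1.004% of the gene counts of a library, and Cst3 and Fcrls held 78.6% of that.

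Among the secreted products, Cst3, which encodes cystatin C, an inhibitor of cysteine proteases, was the highest of the 9. It was at 10516, 10833, 11223 and 11297 TPM in replicates 1 to 4, a mean of 10967 ± 363, and ranked 9th of 21190 protein-coding genes. All 4 libraries lay close together, with replicate 1 lowest. Olfml3, a secreted protein with an olfactomedin domain, was at 278, 248, 250.4 and 257 TPM, a mean of 258 ± 13.8. That value rests on an exon length of 6161 bases in the annotation used, whereas the RefSeq gene of that name spans 2608 bases. With exon lengths capped at the RefSeq span, an alternative chosen after the data were seen, Olfml3 was at 608 TPM ± 32.5. Sparc, a matricellular glycoprotein that binds collagen, was at 170.4, 257, 288 and 223 TPM, a mean of 234.5 ± 50.1. Replicate 1 was lowest for Sparc and replicate 3 highest, and no other marker above 1 TPM spread as widely.

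At the cell surface, Fcrls, an Fc receptor-like molecule with scavenger receptor features, was highest and most even. It was at 5361, 5321, 5346 and 5356 TPM, a mean of 5346 ± 18.0, which ranked 14th of the protein-coding genes. Tmem119, a membrane protein against which antibodies are widely used to stain microglia, was at 1479, 1404, 1343 and 1294 TPM, a mean of 1379.9 ± 80.0, rank 75. Gpr34, a receptor coupled to G proteins that is activated by lysophosphatidylserine, was at 306, 250.3, 245 and 339.5 TPM, a mean of 285 ± 45.5. Its 2 higher libraries were replicates 1 and 4. Selplg, which encodes PSGL-1, the surface mucin that binds P-selectin, was at 218, 205, 202 and 200.6 TPM, a mean of 206 ± 8.04. These 4 surface genes lay within the top 716 protein-coding genes, Selplg being the lowest of them.

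The remaining markers were far lower. Slc2a5 encodes GLUT5, the fructose transporter, which in the brain is known from microglia. It was at 4.87, 5.04, 4.92 and 4.42 TPM, a mean of 4.81 ± 0.274, from 115 to 130 counts per library. The libraries agreed within counting noise, with a coefficient of variation of 5.52% where counting alone gives 9.03%. Its rank was 9122, near the middle of the protein-coding genes. Crybb1, a beta crystallin gene, had 5, 6, 9 and 6 counts in replicates 1 to 4. These make 0.646, 0.878, 1.33 and 0.720 TPM, a mean of 0.894 ± 0.306. The 26 counts in total correspond to 0.255 CPM, with an exact 95% Poisson interval of 0.166 to 0.373 CPM that covers counting error only. A library with 0 counts would allow up to 0.105 to 0.129 CPM, so Crybb1 had reads in every library, but a difference between libraries was not detectable at this depth.

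**Figure D1:**
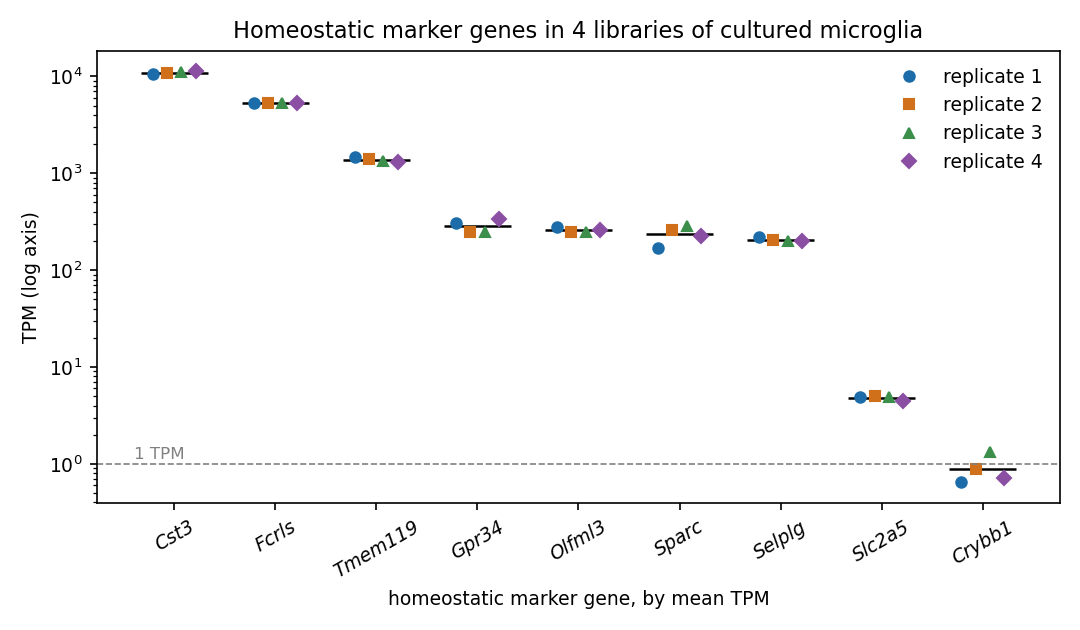
TPM of the 9 markers (log axis) in each of the 4 libraries of cultured microglia, ordered by mean; symbols are replicates, horizontal bars are means and the dashed line marks 1 TPM. The levels run from 10967 TPM for Cst3 to 0.894 TPM for Crybb1, with Gpr34, Olfml3, Sparc and Selplg close together between 170.4 and 339.5 TPM and a gap between Selplg and Slc2a5.

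The order of the levels had clear steps and 1 plateau. Cst3 was 2.05 ± 0.0682 times as high as Fcrls, Fcrls 3.88 ± 0.224 times as high as Tmem119, and Tmem119 4.93 ± 0.821 times as high as Gpr34, as ratios of TPM within a library. Selplg was 43.0 ± 2.47 times as high as Slc2a5, the widest step between neighbours, and Slc2a5 5.77 ± 1.58 times as high as Crybb1. At each of these 5 steps the 2 genes did not overlap and the order held in each of the 4 libraries (two-sided exact permutation test by sign flips on the difference of log2(TPM + 1), p = 0.125, the smallest that 4 libraries can give, and 0.200 when adjusted over the 8 pairs of neighbours). The Cst3 step was 1.04 on the log2(TPM + 1) scale, 0.15 on CPM without gene length and 1.56 with the longest transcript as length, and the Selplg step was 5.16, against 5.88 with the longest transcript. Among Gpr34, Olfml3, Sparc and Selplg each gene overlapped its neighbour. Gpr34 was above Olfml3 in 3 of 4 libraries (exact permutation p = 0.375, adjusted 0.5), Olfml3 above Sparc in 2 (exact permutation p = 0.625, adjusted 0.625) and Sparc above Selplg in 3 (exact permutation p = 0.5, adjusted 0.571). With the exon lengths of the annotation used, differences between neighbours in this plateau were therefore smaller than the spread between libraries. Over its whole width, Gpr34 (245 to 339.5 TPM) and Olfml3 (248 to 278 TPM) did not overlap Selplg (200.6 to 218 TPM), a pair of comparisons that was not tested. The order here depended on gene length. With the longest transcript as gene length Selplg (289 TPM) lay above Gpr34 (216 TPM) and Olfml3 (221 TPM). With capped lengths Olfml3 lay above Gpr34, a Gpr34 minus Olfml3 difference of -1.11 on the log2(TPM + 1) scale.

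RefSeq promoter windows, from 250 bases before to 50 after the annotated start, were held for 6 of the 9 markers: Cst3, Fcrls, Olfml3, Sparc, Slc2a5 and Crybb1. Those of the 2 highest and the 2 lowest markers are shown, because the levels differ most between them. They are on GRCm38.p6, at chr2:148875463-148875762 on the minus strand for Cst3, chr3:87263475-87263774 on the minus strand for Fcrls, chr4:150119094-150119393 on the plus strand for Slc2a5 and chr5:112255570-112255869 on the plus strand for Crybb1. Capitals mark matches to any of 9 motifs.
Cst3: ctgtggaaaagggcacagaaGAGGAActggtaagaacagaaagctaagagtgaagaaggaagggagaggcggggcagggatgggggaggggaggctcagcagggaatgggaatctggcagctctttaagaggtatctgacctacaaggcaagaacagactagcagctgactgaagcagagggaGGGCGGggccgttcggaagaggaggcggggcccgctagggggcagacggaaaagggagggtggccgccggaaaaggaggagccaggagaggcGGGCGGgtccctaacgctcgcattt
Fcrls: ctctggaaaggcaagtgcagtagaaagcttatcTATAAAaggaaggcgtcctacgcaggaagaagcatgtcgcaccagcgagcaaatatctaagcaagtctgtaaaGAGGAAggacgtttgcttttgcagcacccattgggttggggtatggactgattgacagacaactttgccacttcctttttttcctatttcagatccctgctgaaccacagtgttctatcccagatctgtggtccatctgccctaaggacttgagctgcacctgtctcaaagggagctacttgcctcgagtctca
Slc2a5: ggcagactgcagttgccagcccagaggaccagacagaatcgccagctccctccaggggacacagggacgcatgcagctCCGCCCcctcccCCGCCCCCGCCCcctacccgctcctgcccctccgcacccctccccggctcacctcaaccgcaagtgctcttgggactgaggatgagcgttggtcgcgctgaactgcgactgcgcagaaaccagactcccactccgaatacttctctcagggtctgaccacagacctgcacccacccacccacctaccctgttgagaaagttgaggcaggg
Crybb1: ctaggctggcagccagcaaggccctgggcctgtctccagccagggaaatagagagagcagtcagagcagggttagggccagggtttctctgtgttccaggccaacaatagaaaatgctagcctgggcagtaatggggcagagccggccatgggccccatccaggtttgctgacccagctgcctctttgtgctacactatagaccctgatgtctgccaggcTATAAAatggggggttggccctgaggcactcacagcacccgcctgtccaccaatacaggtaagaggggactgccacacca

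The motifs were searched on both strands. GAGGAA, the core bound by the macrophage factor PU.1, was in the windows of the highest pair, Cst3 and Fcrls, and in 28.3% of all 32851 windows of the same length. The letters TATAAA were in those of Fcrls and Crybb1 and in 13.6% of all windows; in Crybb1 they began at position -30, where the annotated start is position 0. GGGCGG, the GC box, was in Cst3, Olfml3 and Slc2a5, and in 35.7% of all windows. It matched 3 times each in Olfml3 and Slc2a5, and at positions -67 and 25 in Cst3. The AP-1 letters TGANTCA, the C/EBP letters TTGCNNAA, the MEF2 core TATTTTTA, the IRF pair, the ETS-IRF composite motif, which can overlap the IRF pair, and the SMAD palindrome GTCTAGAC matched in 0 of the 6 windows, where 7.81%, 10.8%, 2.72%, 3.44%, 2.72% and 0.213% of all windows hold them. The window of Slc2a5 held 15 CpG sites and that of Cst3 13, while those of Fcrls and Crybb1 held 6 and 2, beside a median of 7 over all windows. These matches are a description of letters in short windows.

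The markers also differed in what surrounds them on the chromosome. Tmem119 and Selplg are next to each other among the protein-coding genes of chromosome 5 in the RefSeq order, both above 200 TPM, and their outer neighbours Iscu, a gene of iron-sulphur cluster assembly, and Coro1c, an actin-binding protein gene, were at 171 ± 15.3 and 115 ± 4.18 TPM. Cst3 lies among cystatin-related genes, and its neighbours Cstdc2 and Cst10 had 0 counts. Sparc stood beside Fat2, a cadherin-family gene with 1 count in all libraries together, and Atox1, a copper chaperone gene at 1024 ± 52.6 TPM. Crybb1 stood between another crystallin gene, Cryba4, at 4.74 ± 1.48 TPM, and Tpst2 at 96.1 ± 1.93 TPM. Slc2a5 lies next to Slc2a7, a hexose transporter gene with 0 counts. The exons of the 9 markers overlapped no exon of another gene on either strand in the annotation used.

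Seen beside their relatives and partners, Cst3, Fcrls and Olfml3 were the highest genes of their lists, whereas Slc2a5 and Crybb1 were not. The lists of relatives and partners were compared on TPM. Of 5 other Fc receptor-like genes 1 reached 1 CPM in all libraries, Fcrl1 at 20.4 ± 1.17 TPM. Fcrl5 (0.266 ± 0.138), Fcrlb (0.131 ± 0.0992) and Fcrla (0.0417 ± 0.0834) were under 1 TPM and Fcrl6 had 0 counts. Of 7 other olfactomedin genes 4 were detected, the highest being Olfml2b at 33.3 ± 3.72 TPM, then Olfm2 at 4.46 ± 0.314.

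Cystatin C acts on cysteine proteases of the lysosome. Of the 13 other cystatins and protease targets 9 were detected, and the 4 highest were proteases: Ctss at 5097 ± 372 TPM, Ctsb at 3740 ± 181, Ctsz at 2892 ± 172 and the asparaginyl endopeptidase Lgmn at 2328 ± 64.1. Among cystatins, the intracellular inhibitor Cstb was at 709 ± 25.5 TPM and Cst7, known from activated microglia, at 29.1 ± 2.51. Cst6 was at 0.0694 ± 0.0676 TPM, and Stfa1, Stfa3 and Cst8 had 0 counts.

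Gpr34 belongs with the P2Y12-like receptors. Of these, the ADP receptors P2ry12 and P2ry13 were at levels near its own, 278 ± 54.8 and 261 ± 17.8 TPM. P2ry14 was detected, at 1.02 to 2.78 CPM, but was at only 0.492 ± 0.251 TPM, and Gpr171 had 1 count in total. The other lysophosphatidylserine receptors, Gpr174 and P2ry10, had 0 counts, so that any 1 library could still hold up to 0.129 CPM. Of the enzymes that handle this lipid, Abhd12, a lysophosphatidylserine lipase, was at 1752 ± 164 TPM and Abhd16a, which forms the lipid, at 67.8 ± 1.90, while the secreted phospholipase Pla1a had 3 counts in total.

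PSGL-1 has to be glycosylated and sulphated to bind selectins. Of the 9 listed selectins and modifying enzymes 6 were detected, namely the galactosyltransferase B4galt1 (217 ± 5.32 TPM), the tyrosine sulphotransferases Tpst2 (96.1 ± 1.93) and Tpst1 (43.0 ± 5.72), the branching enzyme Gcnt1 (69.0 ± 9.42), the sialyltransferase St3gal4 (18.6 ± 0.933) and the fucosyltransferase Fut7 (7.34 ± 1.26). Of the selectin genes, Sele had 0 counts and Selp was at 0.130 ± 0.120 TPM. For Sparc, the scavenger receptor Stab1, which takes up SPARC protein from outside the cell, was at 752 ± 51.1 TPM. Its relatives Sparcl1 (13.7 ± 2.45 TPM), Fstl1 (11.1 ± 2.52) and Smoc1 (1.24 ± 0.219) were lower than Sparc and Spock1 had 0 counts.

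Slc2a5 was below the leading hexose genes. Of 14 others 11 were detected, led by the hexokinases Hk2 (102 ± 3.60 TPM) and Hk3 (87.4 ± 5.94) and the transporters Slc2a6 (76.5 ± 7.48) and Slc2a1 (69.9 ± 6.65). Slc2a1, the general glucose transporter GLUT1, was 14.5 ± 0.772 times as high as Slc2a5 within a library. Slc2a3 was lower, at 1.89 ± 0.262 TPM, and Slc2a2 had 0 counts. Khk, the kinase that phosphorylates fructose inside the cell, was at 44.6 ± 4.47 TPM. Crybb1 was likewise below some of its relatives. Of 9 other beta-gamma crystallin genes 2 reached 1 CPM in every library, Crybg3 (12.9 ± 1.4 TPM) and Crybg1 (5.97 ± 0.615). Cryba4 missed that level with 18 to 44 counts per library but was above Crybb1 at 4.74 ± 1.48 TPM, and Cryba1, Cryba2 and Crybb2 had 0 counts.

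**Figure D2:**
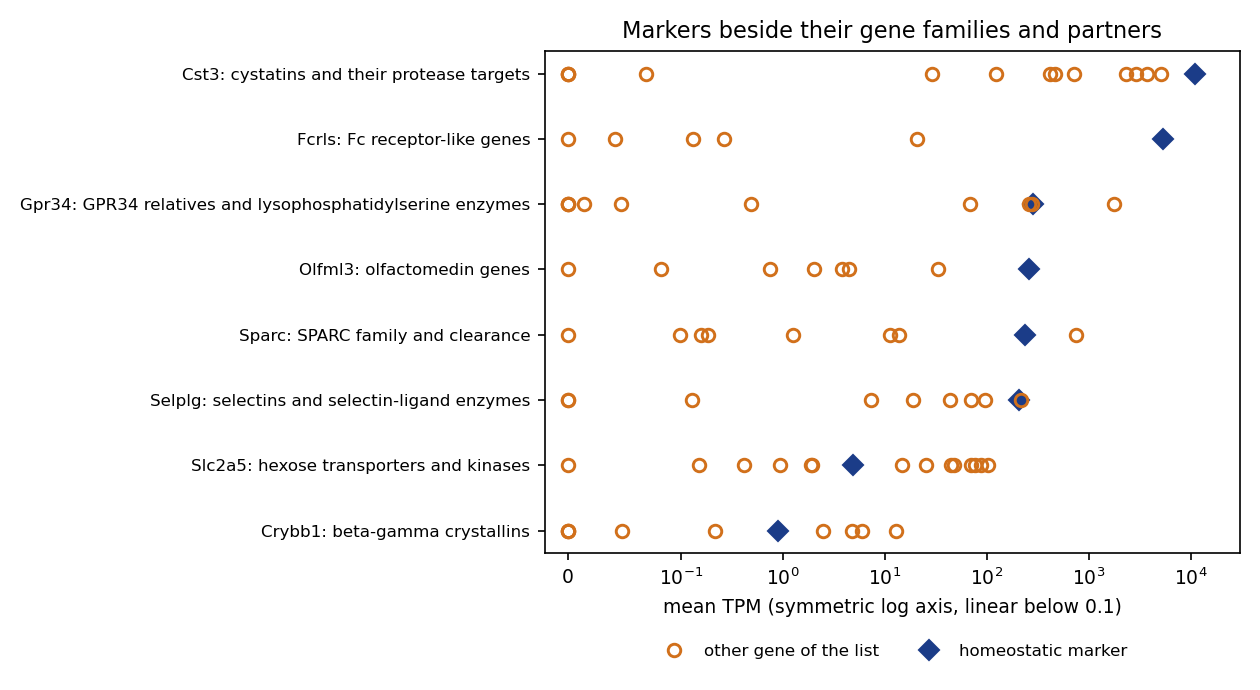
Mean TPM over 4 libraries (symmetric log axis, linear below 0.1) of 8 markers (diamonds) and of the other genes in the list of relatives and partners of each (open circles); Tmem119 had no such list. Cst3, Fcrls and Olfml3 are the highest points of their lists, Gpr34 is exceeded by Abhd12, Sparc by Stab1 and Selplg by B4galt1, and Slc2a5 and Crybb1 lie within or below the middle of theirs.

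The other genes of the microglial programme also held high and near-absent members. Of 24 other microglia-enriched genes 20 reached 1 CPM throughout and 15 averaged 100 TPM or more, with a list median of 141 TPM ± 3.40. Abundant members included the fractalkine receptor Cx3cr1 (2311 ± 78.4 TPM), the integrin gene Itgb5 (2172 ± 71.9) and the checkpoint receptor Vsir (730.0 ± 30.8). Siglech was at 0.680 ± 0.486 TPM, and Upk1b had 0 counts. Of 18 genes that set microglial identity, all were detected, with a median of 115 TPM ± 6.12. Csf1r (2830 ± 108 TPM), the receptor that keeps microglia alive, the TGF-beta receptor gene Tgfbr2 (615 ± 12.6) and the transcription factor gene Spi1 (610.5 ± 16.7) were the 3 highest. The lowest were Sall1, a transcription factor of microglia, at 9.26 ± 0.662 TPM and the TGF-beta-activating integrin gene Itgb8 at 3.23 ± 0.378.

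The libraries were then compared for each gene. The edgeR deviance test asks whether a gene varies more between the libraries than genes of like abundance, and 8 of the 9 markers were abundant enough to enter it. Of these 1 passed, Sparc, beside 1.11% of the 12879 genes tested (143 genes, Benjamini-Hochberg adjusted p under 0.05). Over replicates 1 to 4, Sparc stood at 188, 288, 322 and 251 CPM, with an edgeR adjusted p of 0.00013. Replicate 1 was lowest and replicate 3 highest, 1.72 times as high. The SD of its log2 CPM was larger than that of 99.6% of the 1334 tested genes within 2-fold of its level. The call was lost without replicate 1 (edgeR adjusted p = 0.447) and with 1 common dispersion for all genes (edgeR adjusted p = 0.077).

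By the measure fixed for likeness, the distance between log2 deviations over the 4 libraries, 5 genes among 8551 were nearest to Sparc. They were Mtss2 (0.0136), Clu (0.0195), Slit2 (0.0333), Sorbs2 (0.0455) and Slc1a3 (0.0565). A scaling factor per library shifts all genes alike, so these distances cannot differ with and without TMM scaling. Clu, which encodes clusterin, and Slc1a3, a glutamate transporter gene, were both on the astrocyte list, and Slit2 encodes a secreted guidance protein. Clu was at 152, 234, 262 and 207 CPM (edgeR adjusted p = 0.00021). The ratio of Sparc to Clu in CPM stayed between 1.21 and 1.23, which follows from naming Clu by its small distance in these same libraries. Slc1a3 was at 31.0, 49.2, 54.9 and 43.9 CPM (edgeR adjusted p = 0.015). Mtss2, Slit2 and Sorbs2 did not pass the test.

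Markers of other cells of a glial culture were present, and some astrocyte and mural genes differed between the libraries. The 12 astrocyte genes summed to 314, 491, 527 and 432 CPM in replicates 1 to 4, lowest and highest in the same libraries as Sparc. Clu alone gave 152 of the 314 CPM in replicate 1. The endothelial sum was also lowest in replicate 1 and highest in replicate 3. On CPM without TMM scaling the shared macrophage sum was too, but it ran only from 31660 to 32890.4 CPM. With TMM factors of 0.986 in replicate 1 and 1.015 in replicate 3, an order within so small a span depends on the scaling. Of the 143 genes that passed the test, 43 were lowest in replicate 1 and highest in replicate 3 with TMM scaling. The share of all 12879 tested genes with that order was not computed, so this count is a description only. Of the 12 astrocyte genes 11 reached 1 CPM in all libraries, none was at 0 counts, and 3 passed the test, Gfap, the astrocyte filament gene, at 39.8, 77.3, 76.9 and 56.9 CPM besides Clu and Slc1a3. Endothelial genes summed to 105, 131, 136 and 121 CPM, with 4 of 10 detected. Flt1 (72.1 CPM on average), Slco1a4 (29.5) and Kdr (16.8) were highest, Cdh5 had 109 counts and Pecam1 51 in all, Tek, Esam and Emcn had 0 counts, and 0 of the 5 tested passed in edgeR, 3 of them at an unadjusted p under 0.05. Oligodendrocyte-lineage genes summed to 253, 277, 264 and 252 CPM, with Mbp at 109.7 and Cnp at 107 CPM on average and Mog at 0 counts, and 0 of the 6 tested passed in edgeR, 1 of them at an unadjusted p under 0.05. Mural and fibroblast genes summed to 121, 148.5, 158 and 116 CPM, with 9 of 12 detected and none at 0 counts in all libraries together. Rgs5, Lum and Pdgfra had only 20, 28 and 26 counts in total. Acta2, the smooth muscle actin gene, was the 1 that passed (42.8, 57.2, 73.5 and 45.7 CPM, edgeR adjusted p = 0.0041). Astrocytes, endothelial cells and fibroblasts are all known to make SPARC. The part of these cells in the level or the spread of Sparc was not tested. The shared macrophage genes summed to 31660, 32735, 32890.4 and 32573 CPM, and all 15 were detected.

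**Figure D3:**
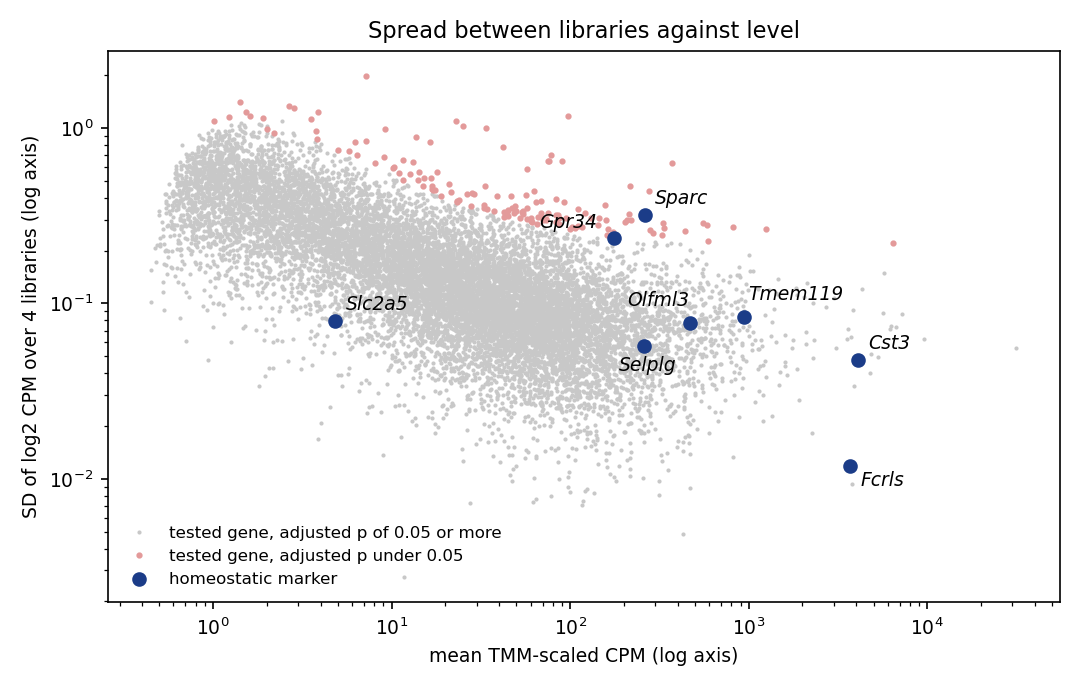
SD of log2 CPM over the 4 libraries against mean TMM-scaled CPM (both log axes) for the 12879 genes tested, with genes at an edgeR adjusted p under 0.05 in red and the 8 tested markers in blue. Sparc lies among the 143 genes that passed, Gpr34 has the next largest SD of the markers, and Fcrls has the smallest.

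Gpr34 had the next largest spread. It was at 186, 155, 152 and 211 CPM in replicates 1 to 4, and it missed the threshold (edgeR adjusted p = 0.058, unadjusted p = 0.00066 in the same edgeR fit). Replicates 1 and 4 were above replicates 2 and 3. It passed with another trend estimator of edgeR (adjusted p = 0.019) and without replicate 1 (edgeR adjusted p = 0.010), and it missed the threshold in the other settings tried. By the distance used for Sparc, the 5 genes nearest to Gpr34 were Zfp280d, Mospd2, Polr1f, Zdhhc17 and Uchl3, none of them on a gene list. Named after their values were seen, P2ry12 and Hpgds, the gene of a prostaglandin D synthase, were the 2 of 20 tested microglia-enriched genes that passed. P2ry12 was at 236, 185, 164 and 249 CPM (edgeR adjusted p = 0.0010) and Hpgds at 186, 160, 141 and 208 CPM (edgeR adjusted p = 0.022), both also highest in replicate 4 and lowest in replicate 3. P2ry13 had the same order, at 199, 187, 182 and 211 CPM, and did not pass. The depth of the libraries ran in this order too, with 28469813, 27012285, 23436924 and 23212183 gene counts in replicates 4, 1, 2 and 3. A link between depth and these genes was not tested.

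**Figure D4:**
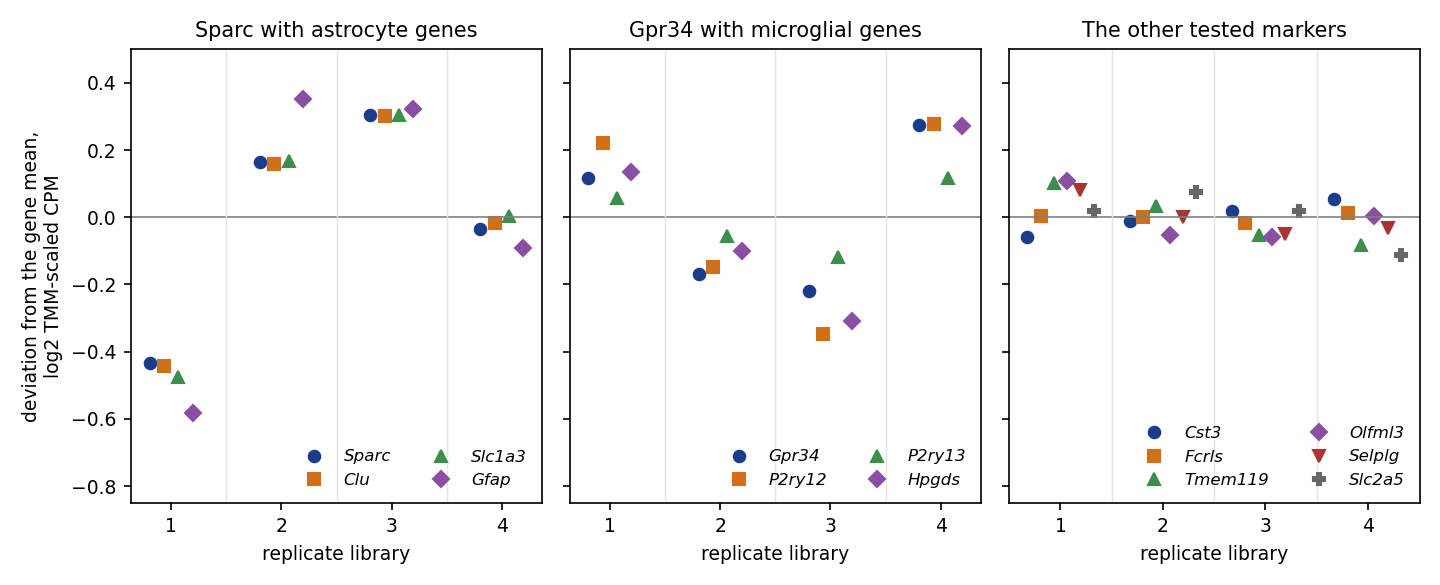
Deviation of each library from the mean of the gene, in log2 TMM-scaled CPM, for Sparc with 3 astrocyte genes, Gpr34 with 3 microglial genes, and the other 6 tested markers. Sparc and Clu lie between -0.44 and 0.30 in near-identical positions, Clu having been found by its closeness to Sparc. Gpr34 is above 0 in replicates 1 and 4 with the 3 genes beside it, which were chosen with their values known. The other markers stay between -0.11 and 0.11.

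The other 6 tested markers did not pass. Fcrls was at 3638, 3676, 3694 and 3713 CPM, a coefficient of variation of 0.868%, where counting alone gives 0.326%. Among the 77 genes with a mean of at least 1000 CPM that was the lowest value, against a median of 4.17%, and with TMM scaling it was the second lowest. Cst3 varied by 4.17%, at 3871, 4059, 4207 and 4247 CPM, highest in replicate 4. Tmem119 was at 995, 962, 920.4 and 889.5 CPM and its neighbour on the chromosome, Selplg, at 271, 259.6, 255 and 254 CPM, with the ratio between them at 3.50 to 3.70. On this CPM both were highest in replicate 1 and lowest in replicate 4. With TMM scaling Selplg was lowest in replicate 3 instead, at a log2 deviation of -0.048 against -0.031 in replicate 4. Olfml3 was at 498, 452, 457 and 470.4 CPM and Slc2a5 at 4.81, 5.08, 4.95 and 4.46 CPM. Leaving out each library in turn, the marker means kept their sizes, with Sparc at 217 to 256 TPM and Crybb1 at 0.748 to 0.976 TPM.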

How the data were processed

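Files deposited by the authors, 1 per library, hold raw whole-number counts for each gene symbol. Per the submitters' processing notes, STAR 2.7.10a, SAMtools 1.16.1 and HTSeq 0.11.2 were used on mm39 (GRCm39); no source used here gives the annotation, strand setting or overlap mode. The 5 summary lines, 11.8% ± 0.159 (SD, n = 4) of reads, were left out. There were 0 columns of no sample.

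CPM used summed gene counts. TPM was computed here from the counts and merged exon lengths of GENCODE M21 (GRCm38, used for lengths and types only), matched by symbol for 89.1% of genes, which held 98.8% of counts. Lengths over all isoforms lower the TPM of genes with many isoforms.

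Spread between libraries was tested in edgeR 4.0.16 (R 4.3.3): 1 mean per gene, TMM, filterByExpr, trended dispersion from estimateDisp, deviance against a chi-square distribution with Benjamini-Hochberg adjustment over all genes tested and a threshold of 0.05. In 1 group no contrast exists, so the quasi-likelihood test was not used. DESeq2 1.42.0, other scalings, filters, lengths, pseudocounts and libraries left out were alternatives. P-values measure the spread between these libraries only.

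Markers, lists, motifs and rules were chosen with earlier results of these data known. Named genes are all markers, the 4 highest and any member under 1 TPM of a list, the 5 genes nearest in pattern to the marker with the largest spread, and chromosomal neighbours. Of the others named, all chosen after their values were seen, St3gal4, Fut7, Cstb, Cst7, Slc2a3, Khk, Sall1, Itgb8 and Hpgds belong to lists. The sex-linked genes and the 5 genes nearest to Gpr34 do not. Promoter sequences are from RefSeq on GRCm38.p6; those of 3 markers were not used here. Some members of the lists are not reported here.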

Additional observations from a re-analysis of the deposited data

Results flagged for a closer look

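Of 27 sets of 4 values checked, those of the 9 markers and the summed CPM of 18 gene lists, 1 was marked because a single library stood far from the others. The selectins and selectin-ligand enzymes summed to 550.6 CPM in replicate 1 and to 514.8, 514.3 and 513.7 CPM in replicates 2, 3 and 4. Chance marks about 1 in 20 such sets. Gcnt1 was the list member with the largest difference in CPM, and neither it nor the other 5 tested members passed the spread test between libraries. No marker was marked.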

How the results depend on the processing

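The number of markers at 1 CPM in every library stayed at 8 with other scalings and without each replicate, and was 7 at 10 CPM. With the longest transcript as gene length the means were 12225 TPM for Cst3, 4157 for Fcrls, 1079 for Tmem119, 216 for Gpr34, 221 for Olfml3, 292 for Sparc, 289 for Selplg and 3.92 for Slc2a5. Fcrls was at 5403 TPM with protein-coding genes only in the total and at 5324 TPM with lengths capped at the RefSeq span, where Olfml3 was at 608 TPM. Directions turned only within the plateau. Gpr34 minus Olfml3 was -1.42 on CPM without gene length, -0.040 with the longest transcript and -1.11 with capped lengths, on the log2 scale. Olfml3 minus Sparc was -0.38 with the longest transcript; over libraries left out in turn it ran from -0.016 to 0.29, below 0 without replicate 1. Sparc minus Selplg was -0.015 on CPM and -0.0063 with the longest transcript. The other 5 steps kept their direction in every setting tried. Their size moved: a pseudocount of 10 gave 3.87 for Selplg minus Slc2a5 and 0.44 for Slc2a5 minus Crybb1. The count of genes past the spread test was 532 with a common dispersion, 69 as DESeq2 dispersion outliers and 47 to 118 with 1 library left out, lowest without replicate 1 and 52 without replicate 3. The count of markers was 0 with a common dispersion (1 at an unadjusted p under 0.05), 2 with the other trend estimator, and 1 with each library left out, Sparc except without replicate 1, where it was Gpr34; the cause was not tested. Depth limits Crybb1, with at most 9 counts in a library. No paired analysis was possible because there is only 1 group.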
